A study of Mus musculus with 8 samples.

Results

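Pericentral β-catenin target genes are genes that hepatocytes around the central vein of the liver lobule express under Wnt signalling. The 10 genes described here, *Axin2*, *Lgr5*, *Tbx3*, *Glul*, *Slc1a2*, *Rhbg*, *Oat*, *Cyp2e1*, *Cyp1a2* and *Rgn*, were listed by name as known genes of this zone, with earlier results of these data known. They are 10 of the 52636 genes in the files, and all 10 were among the 15248 genes with enough counts to be tested. Liver RNA was sequenced from 8 male C57BL/6J mice, 1 library per mouse. All mice carried an adeno-associated virus of serotype 8 (AAV8) with the TBG promoter, which restricts the transgene to hepatocytes, injected at 7 weeks of age, and all were fed the MASH diet, high in fat, fructose and cholesterol, from 8 weeks of age for 24 weeks. Mice 303, 311, 314 and 315 received GFP (AAV8-GFP) and mice 308, 309, 316 and 319 received human AGXT, the hepatic enzyme that detoxifies glyoxylate (AAV8-AGXT). Both groups were therefore on the disease-inducing diet, and livers from chow-fed mice were not analysed here.

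In the liver lobule, blood flows from the portal vein to the central vein, and hepatocytes along this path carry out different tasks. Endothelial cells of the central vein release Wnt ligands and R-spondin, which stabilize β-catenin in the neighbouring hepatocytes, where it acts with TCF/LEF factors on its target genes. Pericentral hepatocytes are known for glutamine synthesis and for the metabolism of drugs and other xenobiotics by cytochrome P450 enzymes, and periportal hepatocytes for urea synthesis and gluconeogenesis.

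Between 17095433 and 28780140 read pairs per library were counted on genes. Levels are given as CPM scaled by TMM factors (normalized CPM). Log2 fold changes (AAV8-AGXT over AAV8-GFP) come from the edgeR quasi-likelihood test, with p-values adjusted by Benjamini-Hochberg across every tested gene. The common biological coefficient of variation was 23.3%, and the human transgene is not among the mouse genes counted, so it was not checked. Mouse *Agxt* ranged from 148 to 180 normalized CPM in AAV8-GFP mice and from 201 to 405 in AAV8-AGXT mice (log2 fold change 0.90, adjusted p = 0.0489). The library of mouse 308 had the lowest share of tallied read pairs on genes, 56.3%. The summed level of 8 hepatocyte markers, among them *Alb* and *Hnf4a*, ranged from 48164 to 57517 normalized CPM in AAV8-GFP mice and from 56704 to 79925 in AAV8-AGXT mice, and no hepatocyte marker was at 0 in any library.

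Of the 10 genes, *Cyp2e1*, *Oat* and *Slc1a2* rose in the livers of AAV8-AGXT mice, by between 2.21-fold and 2.80-fold as ratios of mean normalized CPM, and 0 fell. *Cyp1a2*, *Lgr5* and *Glul* had higher means in AAV8-AGXT mice but did not pass the test. *Axin2*, *Tbx3*, *Rgn* and *Rhbg* had log2 fold changes between 0.14 and 0.29, each with a 95% interval that included 0. Across all tested genes, 2.45% were called higher and 1.9% lower at an adjusted p under 0.05. The same 3 genes were the ones in which every AAV8-AGXT mouse lay above every AAV8-GFP mouse, against 8.93% of all tested genes, and none lay below throughout, against 7.63%. All 10 log2 fold changes were above 0 with TMM scaling (median 0.77), compared with 52.3% of all tested genes (median 0.02), although those of *Rgn*, *Axin2* and *Rhbg* were below 0 with total-count scaling. This direction was not particular to the 10 genes. With TMM scaling it was shared by 8 of 8 hepatocyte markers, 6 of 6 endothelial markers and 14 of 18 periportal genes, but by 0 of 6 cholangiocyte markers. Without mouse 311, 314 or 319, 0 of the 10 genes were called, and calls in the whole table, in both directions together, fell from 664 to 2, 15 and 14. The log2 fold changes of *Cyp2e1*, *Oat* and *Slc1a2* stayed close to their values in all mice, and without these mice ranged from 1.10 to 1.16, from 1.40 to 1.44 and from 1.23 to 1.37. DESeq2's Wald test called 6 of the 10 higher, adding *Cyp1a2* (adjusted p = 0.0113), *Glul* (adjusted p = 0.0182) and *Lgr5* (adjusted p = 0.0428), and called 6.58% of its tested genes higher. With no filter on low counts, the edgeR quasi-likelihood test called 4 of the 10, adding *Cyp1a2* (adjusted p = 0.0480).

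**Figure D1:**
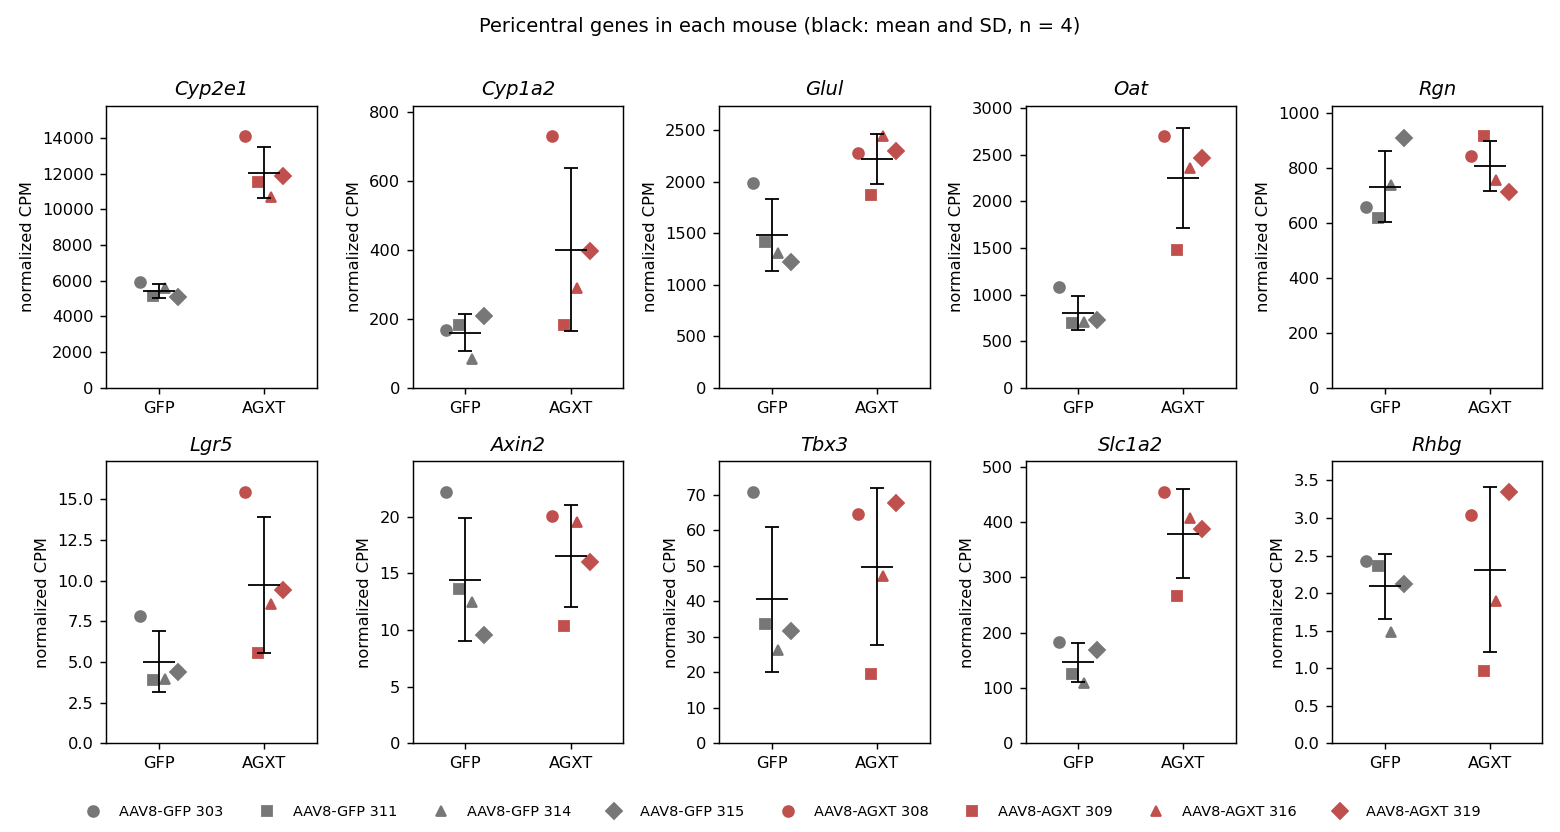
Normalized CPM (y axis, linear from 0, a separate scale for each gene) of the 10 pericentral genes in each mouse of both groups, one symbol per mouse, with the mean and SD of each group in black (n = 4). The groups are separate for *Cyp2e1*, *Oat* and *Slc1a2*, whose AAV8-AGXT mice start at 10713, 1472 and 266 normalized CPM, and overlap for the other 7.

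**Figure D2:**
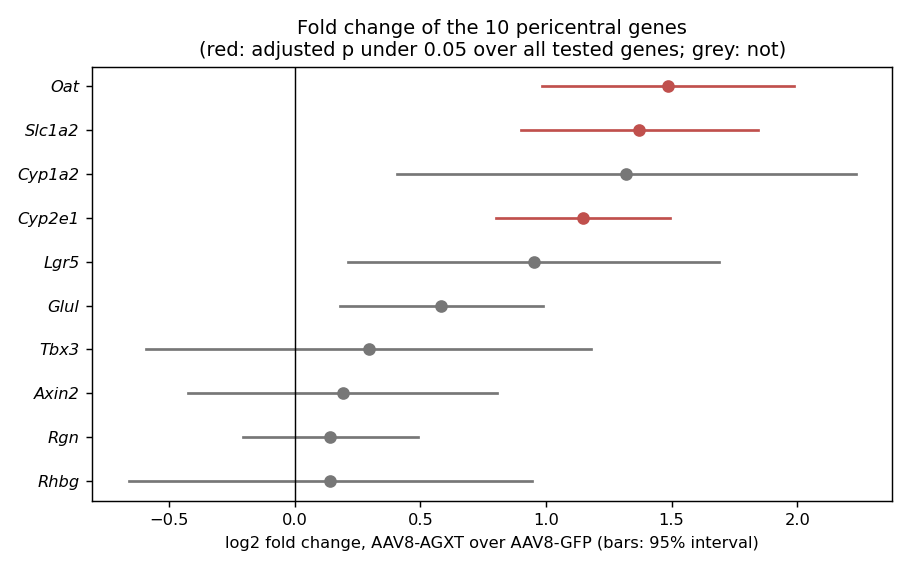
Log2 fold change (x axis, AAV8-AGXT over AAV8-GFP, edgeR) of each of the 10 genes, with bars for the 95% interval and red for an adjusted p under 0.05. The intervals of *Tbx3*, *Axin2*, *Rgn* and *Rhbg* span 0, and that of *Oat* runs from 0.98 to 1.99.

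The DNA just before the RefSeq start was searched for a few short exact sequences, among them CTTTGAT and CTTTGAA for TCF/LEF factors. RefSeq promoter entries on GRCm38.p6 were matched for 6 of the 10 genes, *Cyp2e1*, *Cyp1a2*, *Oat*, *Slc1a2*, *Glul* and *Axin2*. Entries for *Rgn*, *Lgr5*, *Tbx3* and *Rhbg* were missing. The 250 bases before the RefSeq start were searched on both strands for the TCF/LEF sequences CTTTGAT and CTTTGAA, the AHR core GCGTG, the TATA box TATAAA and the HNF1 half-site GTTAAT, and no matches overlapped one another in these windows. The promoters of the 3 genes that rose, and of *Cyp1a2*, another P450 gene, are shown 5′ to 3′ on the strand of the gene, with TCF/LEF matches on either strand in capitals. The window of *Cyp2e1* lies at chr7:140763569-140763818 (plus strand), that of *Cyp1a2* at chr9:57683656-57683905 (minus strand), that of *Slc1a2* at chr2:102706188-102706437 (plus strand) and that of *Oat* at chr7:132576399-132576648 (minus strand).
Cyp2e1: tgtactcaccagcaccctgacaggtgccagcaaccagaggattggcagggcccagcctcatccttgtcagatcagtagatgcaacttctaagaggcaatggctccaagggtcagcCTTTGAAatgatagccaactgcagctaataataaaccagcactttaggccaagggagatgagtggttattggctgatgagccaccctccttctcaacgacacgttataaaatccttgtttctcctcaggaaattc
Cyp1a2: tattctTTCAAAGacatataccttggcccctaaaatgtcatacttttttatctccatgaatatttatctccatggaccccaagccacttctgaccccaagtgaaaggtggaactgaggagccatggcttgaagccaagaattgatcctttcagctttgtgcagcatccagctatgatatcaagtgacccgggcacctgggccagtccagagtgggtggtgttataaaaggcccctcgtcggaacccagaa
Slc1a2: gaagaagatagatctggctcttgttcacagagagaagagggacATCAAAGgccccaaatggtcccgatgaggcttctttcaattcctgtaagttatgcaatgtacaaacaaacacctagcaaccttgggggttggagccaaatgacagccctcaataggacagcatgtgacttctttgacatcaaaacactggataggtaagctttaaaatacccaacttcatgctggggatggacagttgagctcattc
Oat: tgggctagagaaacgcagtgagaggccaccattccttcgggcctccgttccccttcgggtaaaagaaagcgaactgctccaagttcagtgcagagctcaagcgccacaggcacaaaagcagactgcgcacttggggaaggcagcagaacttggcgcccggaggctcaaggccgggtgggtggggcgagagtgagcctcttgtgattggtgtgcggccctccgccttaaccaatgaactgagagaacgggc

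The *Cyp2e1* window held CTTTGAA 135 to 129 bases before the start, on the strand of the gene, and the *Cyp1a2* window held it 244 to 238 bases before the start on the opposite strand. The *Slc1a2* window held CTTTGAT 207 to 201 bases before the start on the opposite strand. Both P450 genes also had TATAAA, 31 to 26 bases before the start in *Cyp2e1* and 29 to 24 in *Cyp1a2*. None of the searched sequences was in the windows of *Oat*, *Glul* or *Axin2*. Of 32817 RefSeq promoters of the same length, 3.21% held CTTTGAT, 4.46% CTTTGAA, 28.1% GCGTG, 12.4% TATAAA and 6.44% GTTAAT. A match describes these letters only, and distal enhancers were not searched. The RefSeq starts used here are not in every case those of the Ensembl gene. The annotated *Slc1a2* gene begins upstream of its window, and the annotated *Cyp2e1* and *Cyp1a2* genes begin inside theirs.

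*Axin2*, *Lgr5* and *Tbx3* varied widely between mice of a group, and *Axin2* and *Lgr5* were scarce. *Axin2* (chr11:108920349-108950783, plus strand), the scaffold of the complex that degrades β-catenin and a general read-out of Wnt signalling, was measured at 22.2, 13.6, 12.5 and 9.53 normalized CPM in AAV8-GFP mice 303, 311, 314 and 315. In AAV8-AGXT mice 308, 309, 316 and 319 it was at 20.1, 10.3, 19.6 and 16.0. The highest mouse of all was in the AAV8-GFP group and the ranges overlapped almost entirely. The log2 fold change was 0.19 (95% interval −0.42 to 0.81, adjusted p = 0.699).

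*Lgr5* (chr10:115450311-115587780, minus strand), the receptor through which R-spondin amplifies the Wnt signal, was measured at 7.85, 3.92, 3.97 and 4.37 normalized CPM in AAV8-GFP mice and at 15.5, 5.53, 8.58 and 9.39 in AAV8-AGXT mice, in the same order of mice. Mouse 303 lay above mouse 309 and the other 3 AAV8-GFP mice lay below all AAV8-AGXT mice. Its log2 difference between groups was 0.95 (SE 0.33, 95% interval 0.21 to 1.69), which did not pass (adjusted p = 0.111, and exact permutation p = 0.0571, two-sided). The counts behind it were 86 to 224 read pairs per library.

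*Tbx3* (chr5:119670669-119684724, plus strand), a T-box repressor that β-catenin induces in pericentral hepatocytes, ranged more widely within each group than between them. It was at 70.9, 33.5, 26.2 and 31.6 normalized CPM in the AAV8-GFP mice and at 64.5, 19.5, 47.1 and 67.8 in the AAV8-AGXT mice. The ranges overlapped, with a log2 fold change of 0.29 (95% interval −0.59 to 1.18, adjusted p = 0.680). Its exons share 115 bases with the antisense gene *Tbx3os1*, which was at 8.30 to 14.9 normalized CPM in AAV8-GFP mice and 12.1 to 52.5 in AAV8-AGXT mice (log2 fold change 1.36, adjusted p = 0.0753). Whether the counting used strand is not given in the sources used here, so read pairs in the shared bases cannot be assigned. *Axin2* likewise shares 209 bases with *Gm11670*.

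Genes of glutamine synthesis and of the uptake of its substrates are the classical pericentral set, and of *Glul*, *Slc1a2* and *Rhbg* only *Slc1a2* passed the test. *Glul* (chr1:153899944-153909723, plus strand) encodes glutamine synthetase, which captures the last ammonium before blood leaves the lobule. It was at 1990, 1413, 1313 and 1217 normalized CPM in AAV8-GFP mice and at 2277, 1871, 2442 and 2300 in AAV8-AGXT mice. Mouse 303 was the highest AAV8-GFP mouse and lay above mouse 309, and no other pair of mice crossed. The means were 1483 ± 347 and 2223 ± 245 (SD, n = 4 each), with a log2 fold change of 0.58 (SE 0.18, 95% interval 0.18 to 0.99) that did not pass (adjusted p = 0.0846). The exact permutation test gave p = 0.0571 (two-sided), and the smallest p that 4 mice against 4 can give is 0.0286.

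*Slc1a2* (chr2:102658659-102790784, plus strand) encodes the glutamate transporter GLT-1, which supplies glutamate to glutamine synthetase. It was at 182, 126, 109 and 168 normalized CPM in AAV8-GFP mice and at 455, 266, 407 and 387 in AAV8-AGXT mice. Every AAV8-AGXT mouse was above every AAV8-GFP mouse. The means of 146 ± 34.7 and 379 ± 80.3 (SD, n = 4 each) gave a log2 fold change of 1.37 (SE 0.21, 95% interval 0.90 to 1.84, adjusted p = 0.0246). Without mouse 311, 314 or 319 its adjusted p was 0.115, 0.0798 and 0.0753. It shares 189 exon bases with the antisense gene *Gm13872*.

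*Rhbg* (chr3:88242874-88254709, minus strand), an ammonium transporter of the basolateral membrane, was scarce, with 16 to 77 read pairs per library. It was at 2.42, 2.36, 1.48 and 2.12 normalized CPM in AAV8-GFP mice and at 3.04, 0.96, 1.90 and 3.35 in AAV8-AGXT mice, so the AAV8-AGXT group held both the lowest and the highest values. The estimated log2 fold change was 0.14 (95% interval −0.66 to 0.94, adjusted p = 0.838). Of its 1937 exon bases, 1190 overlap *Gm38392* on the same strand, so its level is uncertain. *Gm38392* itself was at 0 in 7 of the 8 libraries.

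*Oat* (chr7:132557478-132576398, minus strand) encodes ornithine aminotransferase, which turns ornithine into glutamate in pericentral hepatocytes. It had the largest log2 fold change of the 10 genes. In AAV8-GFP mice it was at 1079, 698, 709 and 724 normalized CPM, and in AAV8-AGXT mice at 2696, 1472, 2353 and 2464. The lowest AAV8-AGXT mouse, 309, was above the highest AAV8-GFP mouse, 303. The means of 803 ± 185 and 2246 ± 535 (SD, n = 4 each) differed by a log2 fold change of 1.48 (SE 0.22, 95% interval 0.98 to 1.99, adjusted p = 0.0246), and the adjusted p was 0.115, 0.0798 and 0.0728 without mouse 311, 314 or 319.

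Of the cytochrome P450 genes, *Cyp2e1* was the most abundant member of the set and *Cyp1a2* one of the most variable. *Cyp2e1* (chr7:140763739-140774987, plus strand), which oxidizes ethanol, acetone and fatty acids, was at 5934, 5151, 5601 and 5113 normalized CPM in AAV8-GFP mice. In AAV8-AGXT mice it was at 14097, 11558, 10713 and 11878. The groups were far apart, and the AAV8-GFP mice had a coefficient of variation of 7.19%, the lowest of the 10 genes. The means of 5450 ± 392 and 12061 ± 1443 (SD, n = 4 each) gave a log2 fold change of 1.15 (SE 0.16, 95% interval 0.80 to 1.49, adjusted p = 0.0198). Without mouse 311, 314 or 319 the adjusted p was 0.108, 0.0728 and 0.0532. The paper already names *Cyp2e1* among the genes raised most significantly in these same livers, so its call is no separate evidence.

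*Cyp1a2* (chr9:57676937-57683703, minus strand), which metabolizes caffeine and aromatic amines and is also induced through the aryl hydrocarbon receptor, was at 169, 182, 82.5 and 209 normalized CPM in AAV8-GFP mice. In AAV8-AGXT mice it was at 731, 183, 291 and 398. Mouse 308 stood well above the rest and mouse 309 lay within the AAV8-GFP range. The log2 fold change of 1.32 was close to that of *Slc1a2* but its standard error of 0.41 was larger (95% interval 0.41 to 2.23), and it did not pass with the filter on low counts (adjusted p = 0.0845, and exact permutation p = 0.0571, two-sided). Without mouse 308 the log2 fold change was 0.85.

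*Rgn* (chrX:20549787-20562089, plus strand) encodes regucalcin, a calcium-binding gluconolactonase of the vitamin C pathway. It was at 658, 620, 741 and 910 normalized CPM in AAV8-GFP mice and at 844, 917, 759 and 712 in AAV8-AGXT mice. The ranges were almost the same, and the log2 fold change was 0.14 (95% interval −0.21 to 0.49, adjusted p = 0.60). Its upper bound was below the lower bounds of *Cyp2e1*, *Slc1a2* and *Oat*.

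Compared per length, the 10 genes covered a wide range of abundance. In AAV8-GFP mice *Cyp2e1* led with 2525 ± 181 CPM per kb of exon, followed by *Rgn* with 456 ± 80.1, *Glul* with 446 ± 104 and *Oat* with 340 ± 78.2 (SD, n = 4 each). *Rgn* was above *Glul* in only 2 of 4 mice, so these neighbours did not differ beyond their spread, whereas *Glul* was above *Oat* in 4 of 4. *Cyp1a2* followed with 79.7 CPM per kb, *Slc1a2* with 11.1, *Tbx3* with 6.12, *Axin2* with 2.62, *Rhbg* with 1.08 and *Lgr5* with 0.49. In AAV8-AGXT mice the order differed only in its upper places, with *Cyp2e1* at 5589 ± 669 CPM per kb, *Oat* at 952 ± 227, *Glul* at 669 ± 73.9 and *Rgn* at 503 ± 56.5. *Oat* was above *Glul* in 4 of 4 of these mice, although the ranges overlapped, and *Rhbg* at 1.19 was above *Lgr5* at 0.95 CPM per kb in 3 of 4.

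The members also shared a pattern of variation within groups, parts of which were seen in other genes too. Mouse 303 was the highest AAV8-GFP mouse for 8 of the 10 genes, while it was the highest for 25.7% of all tested genes. Mouse 309 was the lowest AAV8-AGXT mouse for 8 of 10, against 29.1% of all tested genes, and mouse 308 was the highest for 6 of 10, against 32.4%. The exceptions were *Rgn* and *Cyp1a2* for mouse 303, both highest in mouse 315, and *Rgn* and *Cyp2e1* for mouse 309, with *Rgn* highest of the AAV8-AGXT group in that mouse. Mice 303 and 309 are thus the pair in which *Glul* and *Lgr5* crossed between groups. The genes within a mouse are not independent, so these counts of genes describe the mice and test nothing. Mouse 309 was also the lowest AAV8-AGXT mouse for the hepatocyte markers *Ttr*, *Apoa1*, *Apoc3*, *Serpina1a* and *Tat*, but not for *Alb*, *Fgb* or *Hnf4a*. Mouse 308 was the highest for *Alb*, *Ttr*, *Apoa1* and *Apoc3*, but not for the other hepatocyte markers. It was also the highest for the pericentral genes *Cyp2c37*, *Cyp2c50*, *Cyp2c54* and *Slco1b2*, but not for *Cyp2a5*. The summed level of the 10 genes was 8243 to 10116 normalized CPM in AAV8-GFP mice and 16304 to 21203 in AAV8-AGXT mice, of which *Cyp2e1* alone made up 58.7% to 70.9%.

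**Figure D3:**
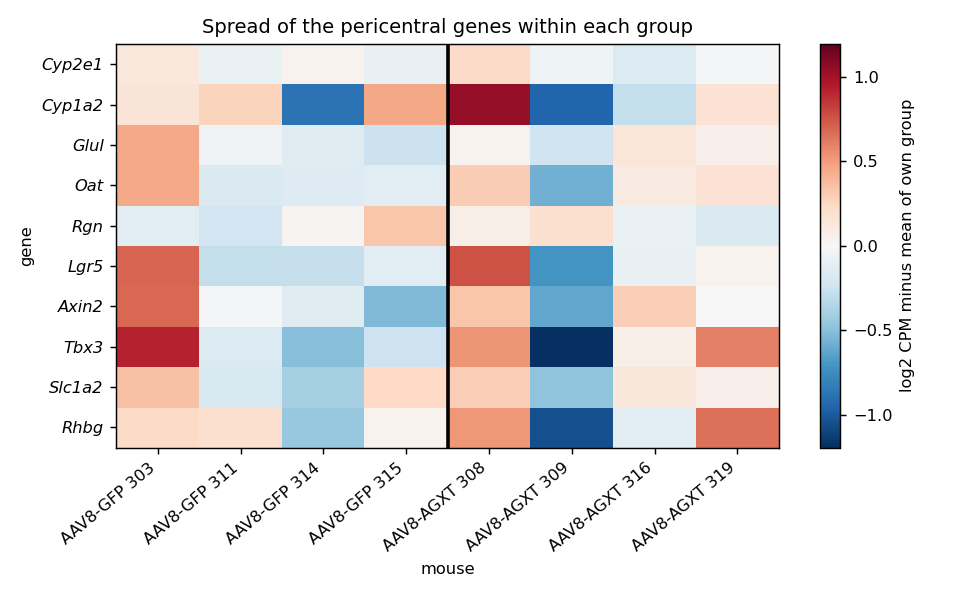
Deviation of log2 CPM from the mean of the mouse's own group (colour scale) for each of the 10 genes (rows) in each mouse (columns, with a line between the groups). Mouse 303 is the highest of its group for 8 genes and mouse 309 the lowest of its group for 8, with *Rgn* departing from both.

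Ratios between members within a library do not depend on scaling, and they were compared between groups for all 45 pairs. None passed after adjustment over the 45 pairs (two-sided exact permutation test, smallest adjusted p = 0.0989), and 13 pairs had groups that did not overlap, each at the smallest possible p of 0.0286 before adjustment. With that smallest p, adjustment over 45 pairs passes only if many pairs reach it together, so the lack of passing pairs decides little. Of these 13, 12 set *Cyp2e1*, *Oat* or *Slc1a2* against a gene that was not called, and the other was *Cyp1a2* against *Rhbg*. The calls came from the same data, so this share is no separate evidence. *Glul* relative to *Oat* had a mean log2 ratio of 0.88 ± 0.11 in AAV8-GFP mice and 0.01 ± 0.25 in AAV8-AGXT mice (SD, n = 4 each) without overlap, and *Glul* relative to *Slc1a2* differed by −0.77, neither of which passed after adjustment. *Oat* relative to *Slc1a2* differed by only 0.10 between groups (exact permutation p = 0.657).

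Because these are whole livers, fewer cells of a type and less RNA per cell cannot be told apart. Relative to the summed hepatocyte markers of the same library, the log2 difference was 0.80 for *Cyp2e1*, 1.14 for *Oat* and 1.04 for *Slc1a2*. Each was without overlap between groups (exact permutation p = 0.0286, two-sided, unadjusted, the smallest possible). These 3 genes had already been called in the same data, so this is no separate evidence. *Alb* alone made up 25931 to 34525 normalized CPM of the marker sum in AAV8-GFP mice and 32356 to 43389 in AAV8-AGXT mice. This scale was chosen after seeing the data. On this scale the differences of *Rgn*, *Axin2*, *Tbx3* and *Rhbg* were below 0, at −0.19, −0.12, −0.08 and −0.31, and none had p under 0.05. Of the 8 hepatocyte markers 0 were called with edgeR, 3 were higher at an unadjusted p under 0.05 (13.5% of all tested genes) and 1 was higher with DESeq2 (6.58%), and their median log2 fold change was 0.40. Marker lists of most other liver cells had median log2 fold changes below 0, at −1.24 for cholangiocytes, −0.67 for stellate cells and myofibroblasts, −0.57 for macrophages and −0.52 for T and B cells. The lists were not uniform. Above 0 were 2 of 6 macrophage markers (*Clec4f* at 0.45 and *Adgre1* at 0.13), 2 of 7 T and B cell markers and 1 of 7 stellate markers, but 0 of 6 cholangiocyte markers. Summed levels were 225 to 676 normalized CPM in AAV8-GFP mice and 74.3 to 274 in AAV8-AGXT mice for 6 cholangiocyte markers, 398 to 657 and 195 to 466 for 7 stellate cell and myofibroblast markers, 444 to 773 and 205 to 589 for 6 macrophage markers, and 12.3 to 17.97 and 6.35 to 12.02 for 7 T and B cell markers. Most of the cholangiocyte sum was *Spp1*, at 201 to 611 in AAV8-GFP mice and 60.3 to 239 in AAV8-AGXT mice. Of the markers in these lists, only *Acta2*, a marker of myofibroblasts, was called with edgeR (log2 fold change −0.99, adjusted p = 0.0427). At an unadjusted p under 0.05, 5 cholangiocyte, 5 stellate, 2 macrophage and 2 T and B cell markers were lower, against 12.6% of all tested genes, and DESeq2 called 4, 2, 2 and 2 lower, against 6.37%. *Acta2* was called in 0 of the 8 fits with a mouse left out, at log2 fold changes from −1.13 to −0.82. The 6 endothelial markers had 0 calls with either tool, 0 at an unadjusted p under 0.05 and a median of 0.23, with sums of 125 to 188 and 134 to 240. No marker was at 0 in all libraries, and the part of these lists in the differences of the pericentral genes was not tested.

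Of 20 other pericentral genes, 5 rose and 0 fell, against the background of 2.45% and 1.9%, and 17 had log2 fold changes above 0 (median 0.51). The genes that rose were the P450 genes *Cyp2c37* (log2 fold change 2.28, adjusted p = 0.0112), *Cyp2c54* (2.20, 0.0129), *Cyp2c50* (1.36, 0.00992) and *Cyp2a5* (1.65, 0.0495), and *Slco1b2* (0.75, 0.0304), a transporter that takes organic anions into hepatocytes. *Cyp2c37* was at 36.5 to 62.3 normalized CPM in AAV8-GFP mice and at 166 to 373 in AAV8-AGXT mice. The Cyp2c and Cyp2a genes have close paralogs that can share reads, so their single values are uncertain. The paper already names *Cyp2c37*, *Cyp2c50* and *Cyp2c54* among the genes raised most significantly in these same livers. The list was chosen with earlier results of these data known, so its share of calls is no separate evidence. Without mouse 311, 0 of the 20 genes were called, and 3 were called without mouse 303, 314 or 319, when the whole table gave 2 calls without mouse 311 and 193, 15 and 14 without the others. The log2 fold changes of *Cyp2c37*, *Cyp2c54* and *Cyp2c50* were at least 1.98, 1.98 and 1.23 with any 1 mouse left out. Those of *Cyp2a5* and *Slco1b2* were at least 1.34 and 0.65, but these genes were called in only 2 and 4 of the 8 fits. The groups overlapped for *Cyp2a5*, at 59.3 to 172 normalized CPM in AAV8-GFP mice and 146 to 510 in AAV8-AGXT mice.

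Genes of the opposite zone of the lobule gave no call downward. Of 18 periportal genes, 3 rose and 0 fell, against 2.45% and 1.9% of all tested genes, with a median log2 fold change of 0.34. The genes that rose were *Cps1* (0.96, adjusted p = 0.0279), *Asl* (0.88, adjusted p = 0.0465) and *Arg1* (0.62, adjusted p = 0.0490), all enzymes of the urea cycle. *Cps1*, which fixes ammonium in mitochondria, was at 612 to 875 normalized CPM in AAV8-GFP mice and 1244 to 1653 in AAV8-AGXT mice. No periportal gene was called without mouse 303, 311, 314 or 319 and *Cps1* alone without mouse 308, when the whole table gave 193, 2, 15, 14 and 177 calls. With any 1 mouse left out, the log2 fold changes ranged from 0.86 to 1.05 for *Cps1*, 0.78 to 1.04 for *Asl* and 0.54 to 0.73 for *Arg1*.

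Of 13 partners of the members in glutamine, ammonium and ornithine metabolism, 11 were tested, 4 rose and 0 fell, against 2.45% and 1.9% of all tested genes (median 0.55). *Slc25a15*, which carries ornithine into mitochondria, where ornithine aminotransferase acts, had a log2 fold change of 0.75 (adjusted p = 0.0344), and *Slc38a3*, a glutamine transporter, one of 0.91 (adjusted p = 0.0372). *Prodh*, which oxidizes proline, and *Odc1*, which turns ornithine into putrescine, had 0.83 (adjusted p = 0.0413) and 0.64 (adjusted p = 0.0413). *Slc38a3* was at 731 to 996 normalized CPM in AAV8-GFP mice and at 1111 to 1883 in AAV8-AGXT mice. *Rhcg*, the paralog of *Rhbg*, was at 0 in all 8 libraries. Without mouse 303, 308, 311, 314 or 319, 0 of the 11 were called, when the whole table gave 193, 177, 2, 15 and 14 calls, and without mouse 316 only *Odc1* was called, of 411 in all. With any 1 mouse left out, the log2 fold changes of the 4 genes were at least 0.67 for *Slc25a15*, 0.81 for *Slc38a3*, 0.74 for *Prodh* and 0.50 for *Odc1*.

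The list of pathway components showed no calls with edgeR. It mixes the signalling machinery with feedback regulators such as *Notum*, *Rnf43* and *Znrf3*, which were not examined apart. Of 26 components, 25 were tested, and 0 passed in either direction with edgeR. At an unadjusted p under 0.05, 6 were higher and 2 lower, against 13.5% and 12.6% of all tested genes, and DESeq2 called 2 higher and 1 lower, against 6.58% and 6.37%. The groups did not overlap for 4 components above and 1 below, against 8.93% and 7.63% of all tested genes. Log2 fold changes were above 0 for 21 of the 25, against 52.3% of all tested genes, and the median was 0.17. The summed level of the components was 749 to 843 normalized CPM in AAV8-GFP mice and 860 to 975 in AAV8-AGXT mice, without overlap. The smallest p-values belonged to the Wnt receptors *Fzd8* (log2 fold change 0.70, adjusted p = 0.0638) and *Fzd4* (0.44, adjusted p = 0.0666) and to *Pygo2*, a co-activator of β-catenin (−0.31, adjusted p = 0.0843), none of which passed. The transcript of β-catenin, *Ctnnb1*, was at 113 ± 16.2 and 110 ± 22.5 normalized CPM (SD, n = 4 each), with a log2 fold change of −0.04 (95% interval −0.40 to 0.32, adjusted p = 0.899), and mRNA does not measure the stabilized protein. Of the central vein ligands, *Wnt2* was at 2.51 to 3.94 normalized CPM in AAV8-GFP mice and 3.59 to 7.53 in AAV8-AGXT mice (log2 fold change 0.77, adjusted p = 0.114), and *Wnt9b* and *Rspo3* had log2 fold changes of 0.42 (adjusted p = 0.617) and 0.18 (adjusted p = 0.745). Of the 5 tested genes of that list 0 passed with edgeR or DESeq2 and 1 was higher at an unadjusted p under 0.05. Its summed level was 23.2 to 27.6 normalized CPM in AAV8-GFP mice and 18.1 to 40.3 in AAV8-AGXT mice. These ligands and *Ctnnb1* were named after their values were seen.

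**Figure D4:**
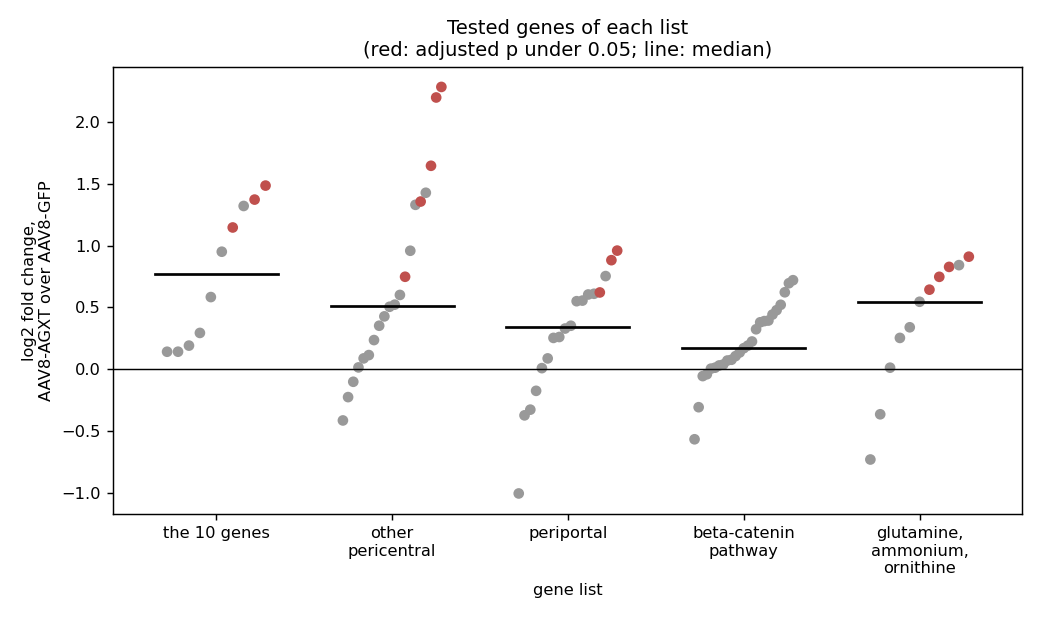
Log2 fold change (y axis, AAV8-AGXT over AAV8-GFP) of every tested gene of the 10 pericentral genes and 4 related lists (x axis), with red for an adjusted p under 0.05 and a line at each median. The medians are 0.77, 0.51, 0.34, 0.17 and 0.55 from left to right, and the β-catenin components hold no called gene.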

How the data were processed

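Liver RNA of 8 mice was measured as stranded mRNA libraries, 4 per group as given by the labels. Per the labels and the study's methods, the authors used Trimmomatic 0.35 for trimming and HISAT2 2.1.0.13 for mapping to GRCm38, and deposited HTSeq counts per gene, unnormalized. The strand setting is not given in the sources used here. HTSeq's tally rows were left out of library sizes, and counts on genes were 56.3% to 69.1% of all tallied pairs. Of 52636 identifiers, 52489 matched GENCODE M21 and 147 did not.

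Genes were tested in R 4.3.3 with edgeR 4.0.16 (filterByExpr, TMM, quasi-likelihood test, treatment only, Benjamini-Hochberg adjustment over 15248 genes, threshold 0.05), after the code was tested on simulated data. Log2 CPM used a prior count of 2, and ratios an offset of 0.5 counts. Intervals are 95%. Ratios were compared over all 70 arrangements of the mice (exact permutation test, two-sided). Alternatives were DESeq2 1.42.0 (the authors' tool), limma-voom (limma 3.58.1), robust fitting, other scalings and filters, and each mouse left out. The ratio to hepatocyte markers was added after seeing the data. All 10 members were named, and of each other list up to 5 genes per direction that passed, or else the 3 with the smallest p. Members, lists and motifs were chosen with earlier results of these data known.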

Additional observations from a re-analysis of the deposited data

Results flagged for a closer look

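Mouse 303 of the AAV8-GFP group stood apart from the other 3 mice of its group for 3 of the 10 genes. It was at 1079 normalized CPM for *Oat*, where the nearest mouse was at 724, at 7.85 for *Lgr5*, where the nearest was at 4.37, and at 70.9 for *Tbx3*, where the nearest was at 33.5. In each case the gap took up more of the group's range than Dixon's 95% critical value for 4 samples allows. Over 20 groups of 4 mice tested, chance flags about 1 in 20, and the genes within a mouse are not independent.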

How the results depend on the processing

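Of the 10 genes, 3 were called higher with edgeR, 6 with DESeq2's Wald test, 4 with no filter on low counts and between 0 and 3 with a mouse left out, and 0 were called lower throughout. *Cyp2e1*, *Oat* and *Slc1a2* were each called in 13 of 16 alternatives. The other pericentral genes gave 5 calls, 11 with DESeq2 and between 0 and 6 with a mouse left out. The periportal genes gave 3 calls, 4 with DESeq2, 1 each with total counts, upper quartile or at least 10 counts in every library, and between 0 and 4 with a mouse left out. The β-catenin components gave 0 calls, 3 with DESeq2, 1 with total counts and between 0 and 2 with a mouse left out. The metabolic partners gave 4 calls, 6 with DESeq2, 2 with total counts and between 0 and 5 with a mouse left out. Of the ratios, 13 had a p under 0.05 before adjustment and 0 after it. Total-count scaling shifted the median log2 fold change of all genes by −0.24, and gave −0.086 for *Rgn*, −0.061 for *Axin2* and −0.12 for *Rhbg*, which also ranged from −0.10 to 0.37 with a mouse left out. Relative to hepatocyte markers, *Rgn*, *Axin2*, *Tbx3* and *Rhbg* were at −0.19, −0.12, −0.079 and −0.31. The cause of these differences was not tested. No paired analysis was possible because the groups share no replicate numbers. The 4 mice per group limit the precision, and the member with the fewest counts, *Rhbg*, had 16 to 77 read pairs per library.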
